A study of Mus musculus with 12 samples.

Results

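Cells labelled Eff were compared with cells labelled Ineff, with both days of a mouse reprogramming experiment in 1 comparison and the day as a covariate. The comparison used 8 of the 12 poly-A RNA-seq libraries of the series, 4 Eff and 4 Ineff, with 2 replicates per day and population. All 8 came from reprogramming cultures of strain 129SV/Jae/C57BL6J in ES medium with dox and AA, were harvested with trypsin and were sorted by flow cytometry for SSEA1, a surface carbohydrate of pluripotent cells. The d3_Eff cells, taken on day 3, carried CD73 and lacked Sca1, and the d6_Eff cells, taken on day 6, carried EpCAM and lacked Sca1. Cells with Sca1 but without CD73 (d3_Ineff) or without EpCAM (d6_Ineff) formed the other population. The Sca1 gate was thus shared by both days, while CD73 was used on day 3 alone and EpCAM on day 6 alone. Eff and Ineff stand for efficient and inefficient. How well the sorted cells reprogrammed was not analysed here. The labels name neither a transgene nor the cultures or animals behind the replicates. The other 4 libraries, 2 each of induced pluripotent stem cells (iPSC) and embryonic fibroblasts (MEF), entered no test between Eff and Ineff and served as end and start levels.

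Reprogramming turns a fibroblast into a pluripotent stem cell through forced expression of Oct4 (gene Pou5f1), Sox2, Klf4 and Myc. Cells that progress shut down matrix, cytoskeletal and mesenchymal genes, divide fast, take on epithelial junctions and later switch on the pluripotency network. Most cells stall, so intermediates that carry early surface markers of progress are sorted away from those that keep fibroblast markers such as Sca1, a membrane-anchored protein of the Ly6 family.

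Gene counts were 16081124 to 22763548 reads in the 8 libraries. The share of reads counted outside genes was 24.1% for d6_Eff replicate 2, and the other 7 libraries had shares of 6.20% to 11.7%. Across genes, the replicates of a group correlated at 0.952 to 0.974 (Pearson r of log2 CPM). Levels are counts per 1000000 gene counts (CPM), scaled by TMM over the 8 libraries. Fibroblast collagens stood far below MEF in every sorted library. Col1a2 had 46.8 to 171 CPM in Eff and 502 to 706 CPM in Ineff, with 10330.0 CPM in MEF on a scale over all 12 libraries. The pluripotency genes Zfp42 and Dppa5a were at or under 7.49 CPM in all 8, against 384 and 4382 CPM in iPSC.

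The gate genes came first. Ly6a (ENSMUSG00000075602), the gene of Sca1, had 86.9 and 83.6 CPM in d3_Eff and 16.5 and 8.68 CPM in d6_Eff, against 666 and 906 CPM in d3_Ineff and 544 and 577 CPM in d6_Ineff. All 4 Eff libraries lay below all 4 Ineff libraries, and the log2 fold change of Eff over Ineff with day as covariate was -4.30 ± 0.54 (SE; edgeR quasi-likelihood F-test, adjusted p = 0.00386). Nt5e (ENSMUSG00000032420), the gene of CD73, had 42.9 and 34.3 CPM in d3_Eff and 51.8 and 47.0 CPM in d6_Eff, against 2.64 and 4.30 CPM in d3_Ineff and 22.1 and 38.7 CPM in d6_Ineff. The gap was wide on day 3, where CD73 was in the gate, and on day 6 the Eff libraries lay just above the Ineff libraries. Its pooled log2 fold change of 2.00 did not pass with day as a covariate (adjusted p = 0.0723), though it did with no filter on low counts, with DESeq2 (adjusted p = 0.00579) and as an average of the within-day differences (1.31e-06). The day 6 difference of 0.69, which the gate of that day does not set, missed the threshold (adjusted p = 0.0515). Epcam (ENSMUSG00000045394) had 11.3 and 12.7 CPM in d3_Eff and 968 and 1014 CPM in d6_Eff, against 5.56 and 5.29 CPM in d3_Ineff and 29.0 and 29.2 CPM in d6_Ineff. It was higher in Eff already on day 3, before EpCAM entered the gate (log2 fold change 1.14, adjusted p = 0.000607), but its pooled value of 3.29 did not pass with day as a covariate (adjusted p = 0.0747). It passed with no filter on low counts, with DESeq2 (adjusted p = 0.00111) and as an average of the within-day differences (1.37e-10), and its gap differed between the days (interaction adjusted p = 9.13e-08). In bulk samples, fewer cells with a transcript and less of it per cell cannot be told apart.

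Fut9 (ENSMUSG00000055373), a fucosyltransferase that makes the SSEA1 epitope, was the member of the 5 sorting-marker genes called higher by edgeR with day as a covariate, and DESeq2 called Epcam and Nt5e as well. It had 40.0 and 39.7 CPM in d3_Eff and 41.2 and 33.7 CPM in d6_Eff, against 19.6 and 19.8 CPM in d3_Ineff and 16.4 and 20.3 CPM in d6_Ineff. Every Eff library lay above every Ineff library, with log2 fold changes of 1.02 on day 3 and 1.03 on day 6 (pooled adjusted p = 0.00120), although all cells had been sorted for SSEA1. Fut4, the other fucosyltransferase gene in the list, was not called (log2 fold change -0.15, adjusted p = 0.781).

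None of the 4 reprogramming factors was called by edgeR, against 1 at an unadjusted p under 0.05 and 1 called higher by DESeq2. Sox2 had 249 and 240.1 CPM in d3_Eff and 249.6 and 223 CPM in d6_Eff, against 201 and 108 CPM in d3_Ineff and 178 and 193 CPM in d6_Ineff. The Eff libraries lay above the Ineff libraries for Sox2, with a log2 fold change of 0.51 that missed the threshold (adjusted p = 0.0679). Pou5f1 (0.44, adjusted p = 0.183), Klf4 (0.36, adjusted p = 0.181) and Myc (-0.02, adjusted p = 0.945) had overlapping libraries. The lowest Pou5f1, Sox2 and Klf4 values, 35.8, 108 and 128 CPM, all came from d3_Ineff replicate 2. Without d3_Ineff replicate 1, 2 of the 4 factors were called higher in Eff.

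**Figure D1:**
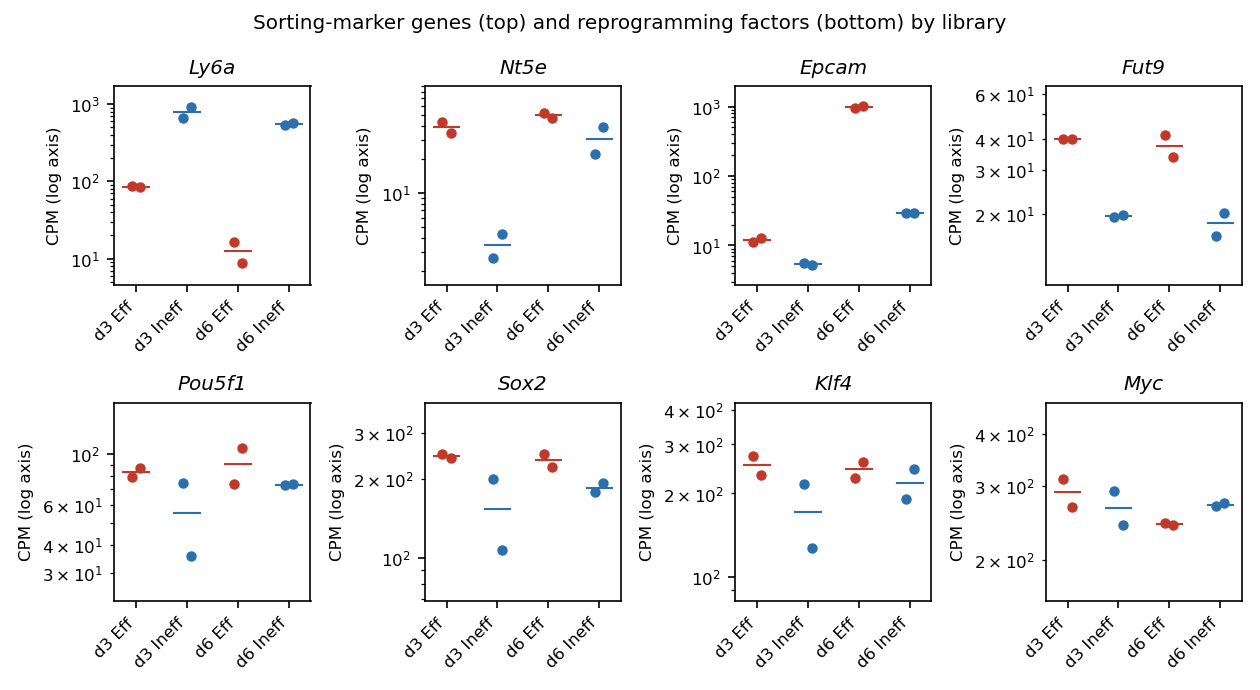
CPM (log axes) of 4 sorting-marker genes (top) and the 4 reprogramming factors (bottom) in each of the 8 libraries, with Eff in red left of Ineff in blue for each day and a line at the mean of 2 libraries. Ly6a and Fut9 separate the populations on both days, Nt5e mainly on day 3 and Epcam mainly on day 6, while the factors overlap or lie close.

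Across 14695 genes tested, 826 were higher (5.62%) and 1337 lower (9.10%) in Eff than in Ineff at an adjusted p under 0.05, together 14.7%. Of the 2163 called genes, 61.8% were lower in Eff. The falls were also larger: 677 genes were at least 2-fold lower and 199 at least 2-fold higher, and the median log2 fold changes were -1.01 and 0.64. The 4 Eff libraries lay wholly above the 4 Ineff libraries in 492 of the 826 genes and wholly below in 905 of the 1337 (5.72% and 8.77% of all genes tested). The counts leaned on the day 6 libraries. Without d6_Eff replicate 1 or 2 they were 276 and 353 higher and 601 and 771 lower, and without d6_Ineff replicate 1 or 2 they were 243 and 285 higher and 680 and 799 lower.

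A main effect from 2 days can come from 1 of them, so each day was also tested by itself. On day 3, 191 genes were higher (1.30%) and 371 lower (2.52%) in Eff, and on day 6, 1793 were higher (12.2%) and 2685 lower (18.3%). The direction was the same on both days for 812 of the 826 genes and for all 1337 lower ones, but 663 and 915 of them passed on day 6 and not on day 3, 16 and 13 on day 3 and not on day 6, and 53 and 77 on neither. Genes that passed in the pooled comparison and on each day by themselves numbered 94 higher (0.640%) and 332 lower (2.26%). These were 49.2% of the genes higher and 89.5% of those lower on day 3, and 5.24% and 12.4% of those on day 6. The number lower fell to 139 without d3_Eff replicate 2, 173 without d3_Ineff replicate 1 and 178 without d3_Ineff replicate 2, and the number higher to 58 without d3_Eff replicate 2 and 50 without d3_Ineff replicate 2.

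The gap between the populations was mostly wider on day 6. CD73 was in the gate on day 3 alone and EpCAM on day 6 alone, so day and gate cannot be told apart. The median log2 fold change of the 826 higher genes was 0.44 on day 3 and 0.85 on day 6, and that of the 1337 lower genes was -0.67 on day 3 and -1.37 on day 6. In 722 and 1208 genes the day 6 value was the larger in size. The difference between the days, in either direction, was itself called in 70 of the higher genes (8.47%) and 399 of the lower ones (29.8%). Among all 14695 genes tested it was called in 1237, with the gap more positive on day 6 in 272 (1.85%) and more negative in 965 (6.57%). The share of the higher genes was thus near that of all genes. Across all 14695 genes, the day 3 and day 6 log2 fold changes, which share no library, correlated at 0.30 (Pearson r, a description, since genes are not independent).

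**Figure D2:**
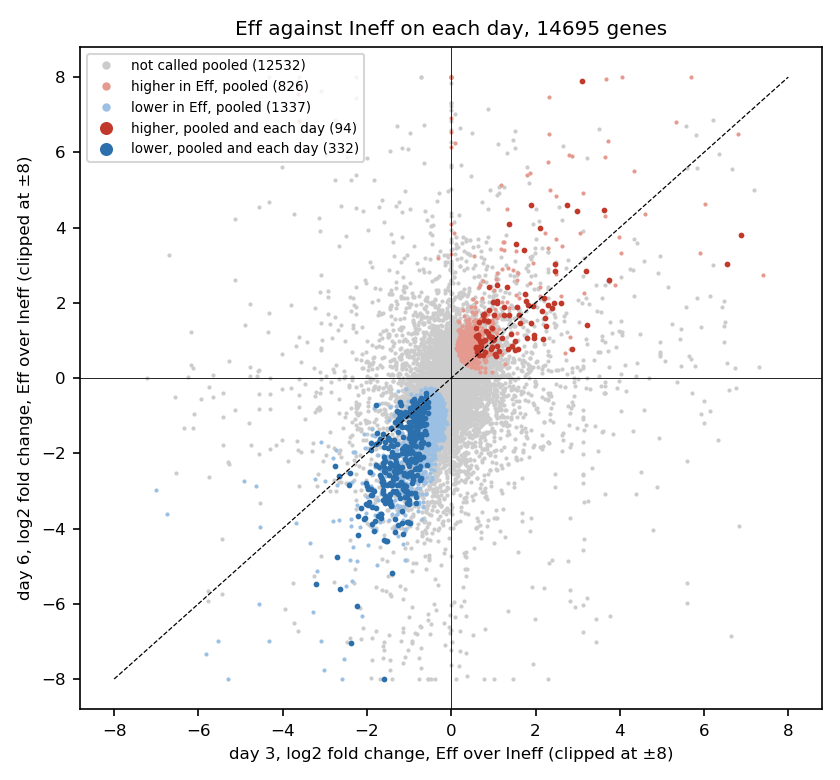
Log2 fold changes of Eff over Ineff on day 3 (x axis) and day 6 (y axis) for 14695 genes, clipped at 8 in either direction, with genes called in the pooled comparison in light colours, those also called on each day in dark colours and the line of equal change dashed. The 332 dark blue points lie mostly below the dashed line, where the fall is larger on day 6.

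The genes that separated the populations most evenly were taken from the called genes without overlap on either day and ranked by the smaller of their 2 within-day changes. That choice favours calls on each day and separate libraries, so nothing is read from their counts. Of the first 12 higher genes, all were called on each day (0.640% of all genes), and in 9 all 4 Eff libraries lay above all 4 Ineff libraries (5.72%). The 2 at the top encode nuclear receptors of the pluripotency network. Nr5a2 (ENSMUSG00000026398), a receptor that can stand in for Oct4 in mouse reprogramming, had 4.79 and 6.24 CPM in d3_Eff and 56.3 and 54.5 CPM in d6_Eff, against 0.364 and 0.519 CPM in d3_Ineff and 3.58 and 1.59 CPM in d6_Ineff. Nr0b1 (ENSMUSG00000025056), a partner of Oct4 in mouse embryonic stem cells, had 21.3 and 24.7 CPM in d3_Eff and 46.6 and 48.5 CPM in d6_Eff, against 2.78 and 3.02 CPM in d3_Ineff and 2.12 and 2.26 CPM in d6_Ineff. Neither exceeded 3.58 CPM in any Ineff library, and the pooled log2 fold changes were 4.15 ± 0.30 for Nr5a2 and 3.70 ± 0.28 for Nr0b1 (adjusted p = 4.93e-05 for each). Trh (ENSMUSG00000005892), the precursor of thyrotropin-releasing hormone, had 437 and 382 CPM in d3_Eff and 253 and 223 CPM in d6_Eff, against 70.7 and 78.1 CPM in d3_Ineff and 32.1 and 34.7 CPM in d6_Ineff. Its level was lower on day 6 than on day 3 in both populations, while the gap stayed near the same size, 2.46 on day 3 and 2.83 on day 6. Its adjusted p of 1.56e-06 was the smallest among the 24 ranked genes (pooled log2 fold change 2.65 ± 0.13).

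The other 9 included 2 further transcription factors, Sox21, a Sox repressor of neural progenitors (3.01 ± 0.23), and Myb, a factor of blood progenitors (2.11 ± 0.21). Sox21 had 12.8 and 18.5 CPM in d3_Eff and 51.1 and 42.8 CPM in d6_Eff, against 2.19 and 1.18 CPM in d3_Ineff and 7.04 and 6.02 CPM in d6_Ineff. A gene on the opposite strand overlaps Sox21, and counting did not use strand, so their reads cannot be told apart. Myb had 14.3 and 17.9 CPM in d3_Eff and 60.8 and 55.1 CPM in d6_Eff, against 2.23 and 3.97 CPM in d3_Ineff and 14.2 and 17.4 CPM in d6_Ineff, so its Eff level on day 3 overlapped its Ineff level on day 6 although the groups of 1 day did not. Rtn1, a reticulon of the endoplasmic reticulum (3.73 ± 0.49), Tspan7, a tetraspanin (1.88 ± 0.18), and Ugt8a, a galactosyltransferase of sphingolipid synthesis (2.20 ± 0.27), followed. Claudins, proteins of tight junctions, were there as a pair. Cldn11 (2.11 ± 0.17) had 34.8 and 34.8 CPM in d3_Eff and 66.3 and 55.9 CPM in d6_Eff, against 5.83 and 8.36 CPM in d3_Ineff and 15.0 and 16.8 CPM in d6_Ineff. Cldn4 (2.71 ± 0.31) had 7.66 and 7.92 CPM in d3_Eff and 226 and 223 CPM in d6_Eff, against 2.41 and 2.27 CPM in d3_Ineff and 20.0 and 22.7 CPM in d6_Ineff. The gap of Cldn4 widened on day 6 (interaction adjusted p = 0.000549), and that of Cldn11 was 2.29 on day 3 and 1.94 on day 6. Mbnl3, an RNA-binding splicing factor (1.98 ± 0.29), and Enpp3, a surface enzyme that cleaves nucleotides (2.04 ± 0.17), completed the 12.

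Of the 12 lower genes chosen and ranked the same way, 11 were called on each day (2.26% of all genes) and 11 had no overlap between the 8 libraries (8.77%). Ly6a led them. Its relative Ly6c1, which no gate used, had 2.82 and 2.60 CPM in d3_Eff and 1.05 and 0.539 CPM in d6_Eff, against 10.0 and 15.2 CPM in d3_Ineff and 9.89 and 19.4 CPM in d6_Ineff, with no overlap (log2 fold change -3.11 ± 0.44, adjusted p = 0.00176). Lmod1, which seeds actin filaments in smooth muscle, was at 0 in d6_Eff replicate 2 and at most 1.52 CPM in Eff, against 5.28 to 8.50 CPM in Ineff (-3.82 ± 0.70, adjusted p = 0.00679). Cdkn1c (ENSMUSG00000037664), the cell cycle inhibitor p57, had 31.5 and 40.9 CPM in d3_Eff and 23.6 and 18.8 CPM in d6_Eff, against 144 and 154 CPM in d3_Ineff and 279.9 and 284 CPM in d6_Ineff. Its level in Ineff was higher on day 6 than on day 3 while that in Eff was lower, and the log2 fold change was -2.04 on day 3 and -3.73 on day 6 (interaction adjusted p = 0.000281).

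The remaining lower genes were secreted or surface proteins and 1 homeobox factor. Adamts5, a protease of cartilage matrix, had 16.6 and 13.8 CPM in d3_Eff and 7.64 and 3.29 CPM in d6_Eff, against 68.8 and 71.6 CPM in d3_Ineff and 69.6 and 72.8 CPM in d6_Ineff, with nearly equal Ineff levels on both days and lower Eff levels on day 6 (pooled -2.92 ± 0.36). Cemip, a hyaluronan-degrading protein (-2.85 ± 0.32), Prss23, a secreted serine protease (-2.75 ± 0.34), and Fgf7, a growth factor that fibroblasts send to epithelia (-2.46 ± 0.37), are secreted proteins too. Fgf7 was the 1 ranked lower gene whose 8 libraries overlapped, with 4.79 and 3.69 CPM in d3_Eff and 1.36 and 0.419 CPM in d6_Eff, against 19.7 and 25.7 CPM in d3_Ineff and 2.97 and 7.56 CPM in d6_Ineff. Megf10, an engulfment receptor (-2.54 ± 0.32), Clec14a, a lectin of endothelium (-2.70 ± 0.34), Vsir, an immune checkpoint protein (-3.38 ± 0.72), and Emx2, a homeobox factor (-2.62 ± 0.36), completed the list. Vsir passed on day 6 and not on day 3 (adjusted p = 0.0622), and its pooled call was lost without d6_Eff replicate 1, without d6_Ineff replicate 1 and without day as a covariate. Genes on the opposite strand overlap Emx2 and Prss23.

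**Figure D3:**
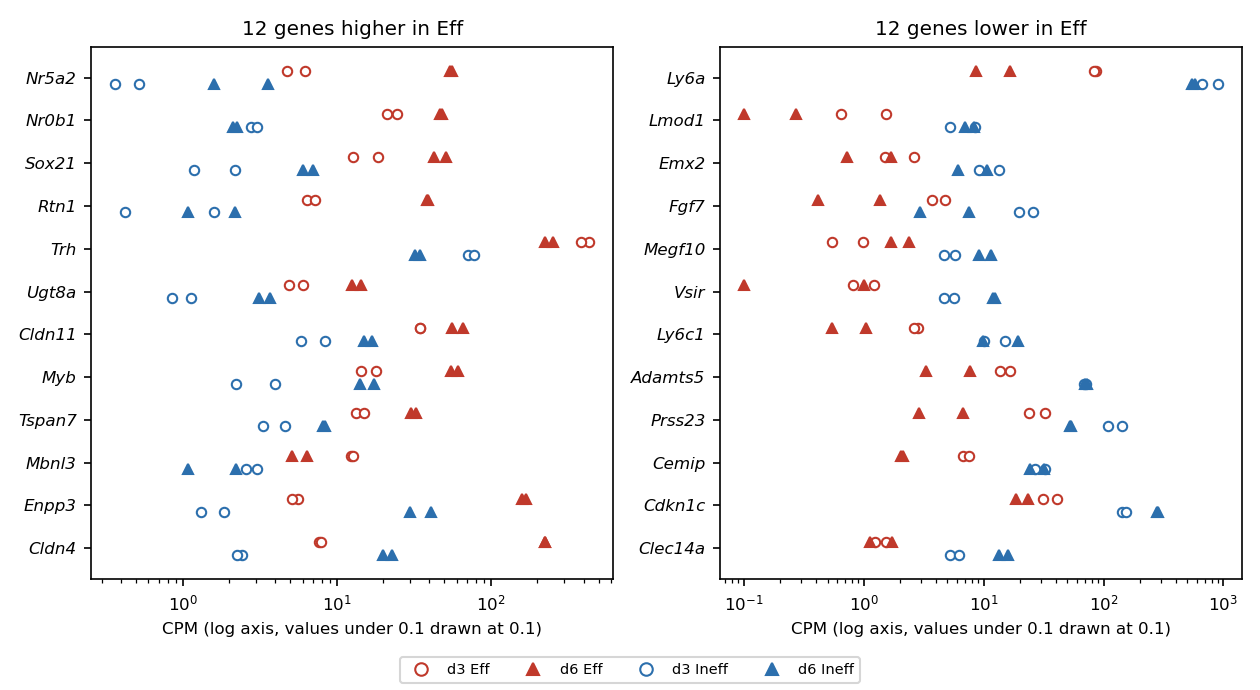
CPM (log axes) in each of the 8 libraries for the 12 genes ranked highest in Eff (left panel) and the 12 ranked lowest (right panel), with Eff in red drawn above Ineff in blue, open circles for day 3 and filled triangles for day 6. In 9 of the 12 higher and 11 of the 12 lower genes, the red and blue points do not overlap.

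Promoter sequences of the ranked genes were searched for motifs of AP-1 and TEAD, factor families that act at fibroblast enhancers. RefSeq's table for build GRCm38.p6 held 20 of the 24, and 4 of these had an AP-1 match (TGANTCA) or a TEAD match (GGAATG) on either strand in the 250 bases before the listed start. They are printed 5′ to 3′ on the strand of the gene, with the match in capitals (CATTCC is the TEAD match on the other strand): Cldn4 and Tspan7 were higher in Eff, Lmod1 and Clec14a lower.
Cldn4, chr5:134946935-134947184, minus strand: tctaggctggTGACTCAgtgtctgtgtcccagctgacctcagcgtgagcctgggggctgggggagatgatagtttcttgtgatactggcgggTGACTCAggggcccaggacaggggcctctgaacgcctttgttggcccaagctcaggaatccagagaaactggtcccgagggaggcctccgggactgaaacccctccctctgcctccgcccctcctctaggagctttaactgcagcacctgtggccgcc
Tspan7, chrX:10484866-10485115, plus strand: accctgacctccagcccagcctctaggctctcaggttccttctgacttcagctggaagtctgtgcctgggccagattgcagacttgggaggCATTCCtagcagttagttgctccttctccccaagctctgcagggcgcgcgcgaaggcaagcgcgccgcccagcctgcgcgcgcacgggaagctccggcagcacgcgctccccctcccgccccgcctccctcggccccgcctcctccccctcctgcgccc
Lmod1, chr1:135324563-135324812, plus strand: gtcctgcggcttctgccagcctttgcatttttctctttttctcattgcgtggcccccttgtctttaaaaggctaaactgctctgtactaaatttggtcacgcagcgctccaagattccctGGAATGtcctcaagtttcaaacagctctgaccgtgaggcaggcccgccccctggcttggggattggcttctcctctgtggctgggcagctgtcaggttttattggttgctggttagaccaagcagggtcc
Clec14a, chr12:58269259-58269508, minus strand: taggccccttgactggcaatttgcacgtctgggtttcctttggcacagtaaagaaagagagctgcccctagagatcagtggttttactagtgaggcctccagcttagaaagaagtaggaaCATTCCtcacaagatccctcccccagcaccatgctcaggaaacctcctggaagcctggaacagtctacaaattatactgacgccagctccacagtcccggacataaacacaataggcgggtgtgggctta

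Shares over all genes gave the background. Of 10463 tested genes with a promoter in the table, chromosome 18 included, 4.14% held an AP-1 match, 10.4% a TEAD match and 60.4% a GC box (GGGCGG, either strand). Among 649 genes called higher the shares were 4.01%, 10.0% and 65.8%, and among 1033 called lower 5.13%, 13.4% and 65.7%. Cldn4, with 2 AP-1 matches, was higher in Eff. A match is a run of letters and not a measured site.

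Gene lists of pathways and cell types were then counted. The list counts below stand against 5.62% higher and 9.10% lower among all genes tested. For members called pooled and on each day, the shares of all genes were 0.640% higher and 2.26% lower. The called members with the smallest adjusted p, up to 3 per direction and list, were named by rule, and the other members described below were added after their values were seen. In 13 lists without a higher member, 5 members in all had an unadjusted p under 0.05 in that direction and DESeq2 called 3, and in 5 lists without a lower member both counts were 0.

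The fibroblast programme was lower in Eff. Of 42 matrix and surface genes tested, 27 were lower and none higher (64.3%, against 9.10% lower among all genes) by edgeR, with a median log2 fold change of -1.76. Sparc, a matrix glycoprotein, had 665 and 516 CPM in d3_Eff and 361 and 318 CPM in d6_Eff, against 1430.0 and 1470.0 CPM in d3_Ineff and 1603 and 1749 CPM in d6_Ineff. Every Eff library lay below every Ineff library (-1.80 ± 0.20, adjusted p = 0.000369), and the gap widened on day 6 (interaction adjusted p = 0.00933). Thbs1, a thrombospondin that activates TGF-beta, had 407 and 255 CPM in d3_Eff and 176 and 123 CPM in d6_Eff, against 1030.0 and 988 CPM in d3_Ineff and 409 and 434 CPM in d6_Ineff, with a gap of similar size on both days (-1.61 and -1.50). Loxl2, a collagen cross-linking enzyme (-2.07 ± 0.26), Col1a2 (-2.67 ± 0.35) and the growth factor receptor gene Pdgfrb (-1.86 ± 0.35) were among the others called. Vim, the mesenchymal intermediate filament gene, was not called (log2 fold change -1.94, -0.68 on day 3 and -3.20 on day 6, adjusted p = 0.0549). Without d6_Eff replicate 1, 17 of the 42 were called.

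Contractile genes were lower on both days. Of 17 tested, 14 were lower and none higher, 12 of them on each day, and 12 to 15 were lower without each single library. Tpm2, a tropomyosin, had 12.3 to 20.4 CPM in Eff and 36.3 to 56.3 CPM in Ineff (-1.51 on day 3 and -1.59 on day 6, pooled adjusted p = 0.000167). Acta2, smooth muscle actin (-2.94 ± 0.53), Tagln, an actin-bundling protein (-2.70 ± 0.41), Myl9, a myosin light chain (-2.41 ± 0.37), and the actin-binding genes Cald1 (-1.54 ± 0.19) and Csrp1 (-1.06 ± 0.13) were also lower.

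Targets of TGF-beta and of YAP, the co-activator of TEAD factors, were lower in 19 of 27 genes and higher in 1 (70.4% lower; median log2 fold change -0.60 on day 3 and -1.45 on day 6), 9 of them lower on each day. The YAP targets Ccn2 (-1.13 ± 0.17), Ccn1 and Ankrd1 (-2.65 ± 0.39) were lower, as was Tgfbi, a matrix adaptor (-2.36 ± 0.30). The 1 higher member was Tgif1, a repressor of Smad transcription (0.69 ± 0.19, adjusted p = 0.0317), a call lost without any 1 of the 4 day 6 libraries. Without d6_Eff replicate 1, 11 of the list were lower.

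Of 29 mesenchymal transcription factors tested, 8 were lower (27.6%) and 1 higher. The number lower depended on the fit, with 16 by DESeq2, 22 as an average of the within-day differences and 24 on day 6 by itself. The median log2 fold change was -0.28 on day 3 and -1.92 on day 6, and 2 of the 8 were lower on each day, Prrx2 (-1.68 ± 0.28) and Prrx1 (-1.97 ± 0.50), homeobox factors of limb mesenchyme. The number lower was 2 without d6_Eff replicate 1 or d6_Ineff replicate 1, 3 without d3_Eff replicate 2, 5 without d6_Ineff replicate 2 and 12 without d3_Eff replicate 1. The repressors of epithelial genes Snai1 (-1.32), Snai2 (-2.46), Zeb2 (-1.77) and Twist1 (-1.10) were not called (adjusted p = 0.0817, 0.0631, 0.142 and 0.204). Foxd1, a forkhead factor of kidney stroma, was the member called higher, with 105 and 132 CPM in d3_Eff and 106 and 101 CPM in d6_Eff, against 45.5 and 37.4 CPM in d3_Ineff and 67.4 and 56.7 CPM in d6_Ineff (1.13 ± 0.17, adjusted p = 0.00193).

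**Figure D4:**
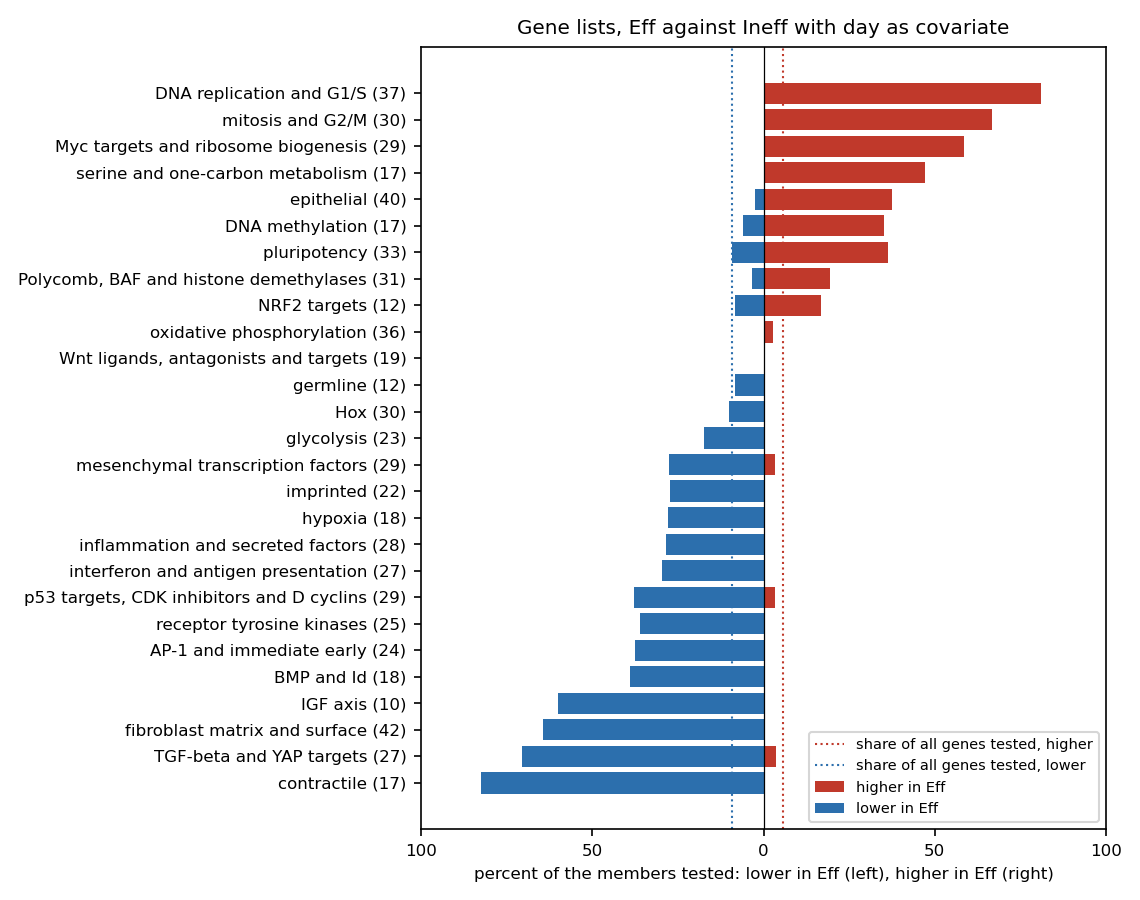
Percent of the tested members of each gene list called lower in Eff (blue, to the left) or higher in Eff (red, to the right) with day as covariate, with the number tested in brackets and dotted lines at the shares among all genes tested, 9.10% lower and 5.62% higher. Contractile, TGF-beta and fibroblast matrix genes reach furthest to the left, and DNA replication, mitosis and ribosome biogenesis genes furthest to the right.

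Epithelial genes were higher in 15 of 40 cases and lower in 1 (37.5% higher, against 5.62% of all genes), but the 2 days were unlike. EpCAM was in the gate on day 6 alone, so day and gate cannot be told apart here. The median log2 fold change was 0.22 on day 3 and 3.29 on day 6, and 6 members were higher on each day. Besides Cldn4 these were Cldn7, Grhl2, Tjp3, Dsp and Spint2. Grhl2, a factor that drives epithelial genes (3.95 ± 0.50), had 1.21 and 0.705 CPM in d3_Eff and 54.1 and 63.2 CPM in d6_Eff, against 0.137 and 0.378 CPM in d3_Ineff and 2.24 and 2.59 CPM in d6_Ineff. Dsp, the desmosome linker desmoplakin (1.73 ± 0.23), had 50.4 and 36.2 CPM in d3_Eff and 95.4 and 135 CPM in d6_Eff, against 19.6 and 9.77 CPM in d3_Ineff and 26.0 and 36.1 CPM in d6_Ineff. Cldn7 had at most 0.868 CPM in d3_Eff and 171 and 179 CPM in d6_Eff, against at most 0.142 CPM in d3_Ineff and 1.03 and 0.501 CPM in d6_Ineff. The call of Rab25, a GTPase of apical transport, rested on day 6, when it had 28.7 and 28.3 CPM in d6_Eff against 0.364 and 0 CPM in d6_Ineff. Its day 3 levels were at most 0.0448 CPM, and DESeq2 did not call it (adjusted p = 0.0667). Cdh1, the gene of E-cadherin, was not called in the pooled comparison, with 21.0 and 15.1 CPM in d3_Eff and 403 and 439.7 CPM in d6_Eff, against 19.2 and 18.8 CPM in d3_Ineff and 45.4 and 44.6 CPM in d6_Ineff (log2 fold change 1.63, adjusted p = 0.214). Jup, the junction protein plakoglobin, was the member called lower (-0.42 ± 0.12, adjusted p = 0.0394), a call lost without 6 of the 8 single libraries (adjusted p of 0.0525 to 0.135). Without d6_Ineff replicate 2, 9 members were higher.

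Pluripotency genes were higher in 12 of 33 cases (36.4%) and lower in 3 (9.09%, near the 9.10% of all genes). The median log2 fold change was 0.75, and 7 of the 12 were higher on each day. Besides the receptors above, Utf1, a chromatin factor, had 2.82 and 4.07 CPM in d3_Eff and 124 and 117 CPM in d6_Eff, against 1.14 and 0.331 CPM in d3_Ineff and 27.3 and 27.5 CPM in d6_Ineff, with a gap of similar size on each day (2.20 and 2.13, pooled adjusted p = 0.000338). Its Eff level on day 3 lay below its Ineff level on day 6. Nanog, a core factor of the network, had 7.26 and 3.09 CPM in d3_Eff and 69.0 and 59.6 CPM in d6_Eff, against 1.87 and 2.50 CPM in d3_Ineff and 4.43 and 5.97 CPM in d6_Ineff (2.54 ± 0.55, adjusted p = 0.0215). Tdgf1, the Nodal coreceptor (3.52 ± 0.71), Nodal, its ligand (1.64 ± 0.20), Sall4 (2.84 ± 0.48), Mycn (1.54 ± 0.21) and Alpl, alkaline phosphatase (1.88 ± 0.23), were also higher. The 3 lower members were Stat3, the factor downstream of LIF (-1.04 ± 0.17), Esrrb, a nuclear receptor of the naive state, and Lefty1, a Nodal antagonist (-1.53 ± 0.45). The call of Lefty1 was lost without 6 of the 8 single libraries (adjusted p of 0.0672 to 0.173). Esrrb had 0.314 and 0.108 CPM in d3_Eff and 2.55 and 3.71 CPM in d6_Eff, against 0.638 and 0.708 CPM in d3_Ineff and 14.1 and 14.1 CPM in d6_Ineff, so it was lower in Eff although its level in iPSC was 599 ± 7.39 CPM (SD, n = 2; adjusted p = 0.00497). L1td1, another gene of the network, did not pass (0.06, adjusted p = 0.776). Without each single library, 10 to 14 members were higher.

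Proliferation genes were higher by modest amounts. Of 37 DNA replication and G1/S genes, 30 were higher and none lower (median log2 fold change 0.61), and of 30 mitosis genes 20 were higher and none lower (0.54), though 3 and 1 passed on each day. Cdt1, which licenses replication origins, had 119.8 and 132 CPM in d3_Eff and 157 and 154 CPM in d6_Eff, against 86.2 and 80.5 CPM in d3_Ineff and 76.0 and 66.8 CPM in d6_Ineff, with all Eff above all Ineff libraries (0.86 ± 0.13, adjusted p = 0.00202). Mcm10, a replication fork protein, had 105 and 101 CPM in d3_Eff and 129.7 and 129 CPM in d6_Eff, against 69.2 and 68.1 CPM in d3_Ineff and 55.1 and 48.0 CPM in d6_Ineff (0.95 ± 0.15). Plk1, a mitotic kinase, had 236 and 229.8 CPM in d3_Eff and 208 and 180.3 CPM in d6_Eff, against 168 and 142 CPM in d3_Ineff and 97.2 and 120.1 CPM in d6_Ineff (0.71 ± 0.12, adjusted p = 0.00399). The replication count fell to 18 without d6_Eff replicate 1 or d6_Ineff replicate 1 and 17 without d6_Ineff replicate 2. The mitosis count fell to 11 and 12 without d6_Eff replicate 1 and 2 and to 7 and 9 without d6_Ineff replicate 1 and 2.

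Genes of growth and biosynthesis were higher too. Of 29 Myc target and ribosome biogenesis genes, 17 were higher and none lower, among them Srm, spermidine synthase (0.81 ± 0.13), Ppan (0.78 ± 0.14) and Nolc1, a nucleolar chaperone (0.83 ± 0.16). Of 17 serine and one-carbon genes, 8 were higher and none lower. Gcat, a mitochondrial enzyme of threonine and glycine breakdown, had 58.9 and 94.2 CPM in d3_Eff and 97.4 and 94.7 CPM in d6_Eff, against 33.8 and 38.6 CPM in d3_Ineff and 24.7 and 23.2 CPM in d6_Ineff (1.54 ± 0.21, adjusted p = 0.00123). Shmt1, the cytosolic serine hydroxymethyltransferase, had 165 and 170.2 CPM in d3_Eff and 210.2 and 197 CPM in d6_Eff, against 106 and 110.3 CPM in d3_Ineff and 100.4 and 83.4 CPM in d6_Ineff (0.89 ± 0.13). These 2 were the members higher on each day. The ribosome list dropped to 5 without d6_Eff replicate 1, d6_Eff replicate 2 or d6_Ineff replicate 1 and to 4 without d6_Ineff replicate 2, and the serine list to 4 without d6_Eff replicate 2 and to 2 without any other 1 of the day 6 libraries. Of 36 oxidative phosphorylation genes, edgeR called 1 higher, Cyc1 (0.43 ± 0.11; 2.78%, against 5.62%), and none lower. The median log2 fold change was 0.15, against -0.01 over all genes, and 32 of the 36 were positive. By edgeR 9 were higher at an unadjusted p under 0.05, DESeq2 called 3 higher, and the average of the within-day differences gave 6. Without d3_Eff replicate 1 or d3_Ineff replicate 2 the number called higher by edgeR was 6, and without any 1 of the day 6 libraries it was 0.

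Some cell cycle inhibitors and all 3 D cyclins were lower. Of 29 genes in the list with p53 targets, 11 were lower (37.9%) and 1 higher (3.45%), with a median log2 fold change of -0.36. Cdkn2b (ENSMUSG00000073802), the inhibitor p15, had 16.3 and 13.6 CPM in d3_Eff and 10.8 and 11.7 CPM in d6_Eff, against 52.7 and 58.5 CPM in d3_Ineff and 42.3 and 42.2 CPM in d6_Ineff. The Eff and Ineff levels did not overlap, and the log2 fold change was -1.90 on day 3 and -1.90 on day 6 (pooled SE 0.14, adjusted p = 4.93e-05). Ccnd1, the gene of cyclin D1, which promotes rather than blocks cell cycle entry, had 249 and 248 CPM in d3_Eff and 211 and 182 CPM in d6_Eff, against 538 and 475 CPM in d3_Ineff and 467 and 528 CPM in d6_Ineff (-1.18 ± 0.12, adjusted p = 0.000277), and Ccnd2 (-1.11 ± 0.20) and Ccnd3 (-0.57 ± 0.15) were lower too. Cdkn2a, the gene of p16 and Arf, was lower (-0.69 ± 0.18, adjusted p = 0.0281), and Cdkn1a, the p53 target p21, was not called (-0.44, adjusted p = 0.0551). Trp53 itself was higher (0.44 ± 0.12, adjusted p = 0.0325), a call lost without any 1 of the day 6 libraries. Without those libraries in turn, 5 or 6 members were lower.

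Stress and immune lists held lower members and no higher ones. Of 24 AP-1 and immediate early genes, 9 were lower (37.5%, against 9.10% of all genes), 5 on each day, and none higher. Fosl2, an AP-1 subunit, had 9.34 to 22.7 CPM in Eff and 17.4 to 45.8 CPM in Ineff, without overlap on either day (-1.01 ± 0.15, adjusted p = 0.00164). Also lower were Btg2, an antiproliferative factor (-0.79 ± 0.11), and Dusp1, a MAP kinase phosphatase (-1.09 ± 0.17), while Jun (-0.36, adjusted p = 0.154) and Junb (-0.27, adjusted p = 0.135) were not called. Of 27 interferon and antigen presentation genes, 8 were lower (29.6%). Among them were Tapbp (-0.75 ± 0.13) and Tap1 (-1.15 ± 0.22), which load peptides on MHC class I, and Ifitm3, an antiviral membrane protein (-0.68 ± 0.13). Of 28 inflammation and secreted factors, 8 were lower (28.6%). Among them were C1s1, a complement protease (-2.08 ± 0.26), Ptx3, a pentraxin (-1.79 ± 0.26), and Cxcl12, a chemokine (-2.21 ± 0.36).

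Growth factor signalling genes were lower in 6 of 10 members of the IGF axis (60%), 9 of 25 receptor tyrosine kinases (36%) and 7 of 18 BMP and Id genes (38.9%). None was higher in any of the 3. Igfbp3, which binds IGF in serum and tissue, had 329 and 261 CPM in d3_Eff and 185 and 158 CPM in d6_Eff, against 732 and 762 CPM in d3_Ineff and 903 and 863 CPM in d6_Ineff (-1.85 ± 0.20, adjusted p = 0.000363). The binding proteins Igfbp6 (-2.44 ± 0.32) and Igfbp7 (-2.46 ± 0.31) were lower as well. Ddr1, a collagen receptor kinase, had 29.2 and 28.0 CPM in d3_Eff and 12.2 and 10.8 CPM in d6_Eff, against 71.8 and 67.9 CPM in d3_Ineff and 63.0 and 67.3 CPM in d6_Ineff, with no overlap (-1.88 ± 0.22). Bmp4, a BMP ligand (-1.89 ± 0.41), and Nog, an antagonist of BMPs (-3.29 ± 0.66), were both lower, as was the receptor gene Bmpr1a (-0.64 ± 0.15). None of 19 Wnt ligands, antagonists and targets was called by edgeR, 2 each were higher and lower at an unadjusted p under 0.05, DESeq2 called 2 higher and 1 lower, and 1, 1 and 2 were called higher without d3_Eff replicate 1, d3_Eff replicate 2 and d3_Ineff replicate 2. The kinase count was 14 without d3_Eff replicate 1 and 4 without d6_Eff replicate 1, and the BMP count was 3 without d6_Eff replicate 1 or 2 and 2 without d6_Ineff replicate 1.

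**Figure D5:**
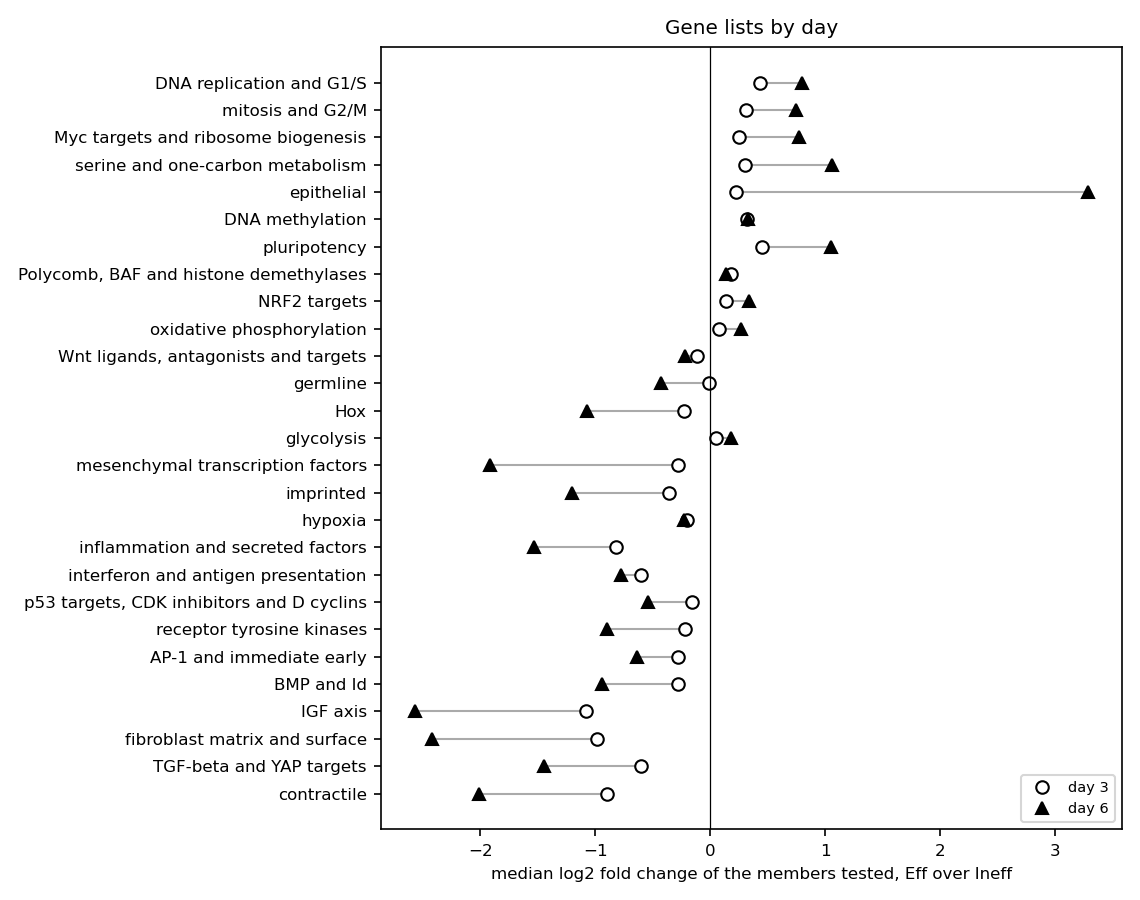
Median log2 fold change of Eff over Ineff of the tested members of each gene list on day 3 (open circles) and day 6 (filled triangles), in the same order as in the plot of percentages. The median of epithelial genes is 0.22 on day 3 and 3.29 on day 6 and that of mesenchymal transcription factors -0.28 and -1.92, while those of hypoxia and DNA methylation genes are nearly equal on both days.

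Of 18 hypoxia genes, 5 were lower (27.8%, against 9.10% of all genes) and none higher. Epas1, the gene of HIF-2 alpha, had 18.6 and 15.6 CPM in d3_Eff and 10.9 and 13.9 CPM in d6_Eff, against 63.8 and 54.6 CPM in d3_Ineff and 38.1 and 45.7 CPM in d6_Ineff, a gap of nearly equal size on both days (-1.79 and -1.76, pooled adjusted p = 7.26e-05), while Hif1a was not called (-0.12, adjusted p = 0.523). P4ha2, a collagen prolyl hydroxylase (-1.83 ± 0.28), and Egln3, an oxygen sensor (-0.72 ± 0.16), were lower. Of 23 glycolysis genes 4 were lower (17.4%), Eno3 (-1.22 ± 0.18), Hk1 (-0.81 ± 0.17), Aldoc (-1.36 ± 0.35) and Eno2 (-1.38 ± 0.38), and none was higher by edgeR. The list was mixed, with a median log2 fold change of 0.11 and 12 of the 23 positive. DESeq2 called 1 higher and 4 lower, and the average of the within-day differences 2 higher and 4 lower. On day 6 by itself 3 were higher and 7 lower. Without d6_Eff replicate 1 or 2 or d6_Ineff replicate 1, 2 glycolysis genes were lower, and 3 hypoxia genes were lower without d6_Eff replicate 1 or d6_Ineff replicate 1. Of 12 NRF2 targets, Gsr (0.65 ± 0.14) and Gpx2 were higher (16.7%) and Cat (-0.41 ± 0.12) lower (8.33%, near the 9.10% of all genes). Gpx2 was at 0 in both d3_Eff libraries and at 37.9 and 36.8 CPM in d6_Eff. Gpx2 was not called by DESeq2 (adjusted p = 0.658) or as an average of the within-day differences (0.943). Cat was called lower without d3_Eff replicate 1 and not without any other single library, and the number higher was 4 without d3_Eff replicate 2, 3 without d3_Ineff replicate 2, 0 without d6_Ineff replicate 1 and 1 without any other day 6 library.

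Chromatin genes gave more higher than lower calls. Of 17 DNA methylation genes, 6 were higher (35.3%) and 1 lower (5.88%). Tet2, a methylcytosine dioxygenase, had 16.7 and 15.2 CPM in d3_Eff and 23.8 and 29.1 CPM in d6_Eff, against 8.02 and 3.92 CPM in d3_Ineff and 11.7 and 11.9 CPM in d6_Ineff, with no overlap and calls on each day (1.29 ± 0.22, adjusted p = 0.00369), while Tet1 was not called (0.54, adjusted p = 0.0530). Dnmt1 (0.67 ± 0.13) and its partner Uhrf1 (0.92 ± 0.19), which copy methylation at replication, were higher, and Apobec1, a cytidine deaminase, lower (-0.75 ± 0.17). Of 31 Polycomb, BAF and demethylase genes, 6 were higher (19.4%) and 1 lower (3.23%). The higher ones included Ezh2, the H3K27 methyltransferase (0.85 ± 0.17), Cbx7 (0.76 ± 0.15) and Pcgf6 (0.76 ± 0.16). Cbx8 was lower (-1.01 ± 0.27), a call lost without 5 of the 8 single libraries. The methylation count was 3 without d6_Ineff replicate 1 and the Polycomb count 3 without d6_Eff replicate 1 or d6_Ineff replicate 1. The calls of Apobec1 and Cbx8 were the only lower ones in these lists, and the number lower was 0 to 2 without single libraries.

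Imprinted, Hox, germline and Ly6 genes completed the lists. Of 22 imprinted genes, 6 were lower (27.3%) and none higher, with Plagl1 (-1.34 ± 0.19) and Mest (-1.19 ± 0.23), growth regulators, beside Cdkn1c. Without any 1 of the day 6 libraries, 3 were lower. Of 30 Hox genes, Hoxa13 (-1.79 ± 0.40), Hoxd10 (-0.91 ± 0.27) and Hoxa10 (-0.50 ± 0.15) were lower, with the calls of Hoxd10 and Hoxa10 each lost without 6 of the 8 single libraries. This was a share of 10.0% against 9.10% of all genes, and 0 to 5 were lower without single libraries, with 0 without d6_Eff replicate 1 and 5 without d3_Ineff replicate 2. Of 12 germline genes 1 was lower (8.33%, near the share of all genes), Rec8, a meiotic cohesin (-1.59 ± 0.26), and none was higher, with 2 lower without d3_Eff replicate 2. Of 7 Ly6 and uPAR family genes, Ly6a, Ly6c1, Ly6e (-0.76 ± 0.14) and Plaur, the urokinase receptor (-1.06 ± 0.19), were lower, and Ly6d (2.74 ± 0.66) and Cd59a (1.06 ± 0.29) higher. The calls of Ly6d and Cd59a were lost without any 1 of the day 6 libraries, and that of Cd59a also without d3_Eff replicate 1. Ly6d had 0.134 and 0 CPM in d3_Eff and 20.8 and 28.5 CPM in d6_Eff. In d3_Ineff it had 0.182 and 0 CPM and in d6_Ineff 2.85 and 2.51 CPM, so its call rested on day 6. Ly6d was not called by DESeq2 (adjusted p = 0.264) or as an average of the within-day differences (0.168). Cd59a gave 0.31 on day 3 and 1.66 on day 6.

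Markers of other cell types were looked at beside these results. The 13 leukocyte markers summed to 212 to 276 CPM in Eff and 328 to 517 CPM in Ineff, most of it Laptm5, a lysosomal protein (-0.84 ± 0.17, adjusted p = 0.00969). Without Laptm5 the sum was at most 10.1 CPM, and the defining leukocyte gene Ptprc had 0 counts in all 4 Eff libraries and 3 counts in 1 Ineff library. Of 12 endothelial markers, with sums of 109 to 159 CPM in Eff and 168 to 182 CPM in Ineff, Egfl7 was higher (0.95 ± 0.28) and Tek lower (-0.58 ± 0.14), each a call lost without any 1 of the day 6 libraries, and Pecam1 was at most 0.240 CPM in Eff and 1.70 CPM in Ineff. Of 17 neural and glial markers, with sums of 305 to 375 CPM in Eff and 331 to 516 CPM in Ineff, Olig1 was called higher and Nes (-0.89 ± 0.15), Mbp (-0.44 ± 0.11) and Gfap lower. Olig1 had 2.78 and 2.22 CPM in d6_Eff and 0 in the other 6 libraries, and Gfap had 0 counts in Eff and 0.683 and 0 CPM in d3_Ineff and 0.910 and 1.04 CPM in d6_Ineff. Olig1 was not called without any 1 of the day 6 libraries, by DESeq2 (adjusted p = 0.367) or as an average of the within-day differences. Without any 1 of the day 6 libraries or d3_Ineff replicate 1, 1 of the 3 lower genes was called.

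The 12 skeletal muscle markers summed to 6.29 to 77.9 CPM in Eff and 7.20 to 31.9 CPM in Ineff, and Pax7, a factor of muscle stem cells and neural crest, had the highest mean of them. Pax7 had 3.67 and 2.82 CPM in d3_Eff and 62.0 and 58.7 CPM in d6_Eff, against 0.501 and 0.567 CPM in d3_Ineff and 13.5 and 16.8 CPM in d6_Ineff. The gap was of similar size on each day (2.60 and 1.99, pooled adjusted p = 0.000121), while Myf5, Myh8 and Ckm had 0 counts in all 8 libraries. Acta1, skeletal actin, was lower (-2.13 ± 0.45, adjusted p = 0.0109). The 2 epidermal keratinocyte markers that were tested, Krt10 and Sfn, were not called, and the list summed to 10.8 to 52.3 CPM in Eff and 12.7 to 18.4 CPM in Ineff. The part of such cells in the results above was not tested.

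The called genes were then set against the MEF and iPSC libraries, which the comparison had not used. MEF replicate 2 had 47.2% of its reads outside genes and 9284060 gene counts, against 5.1% and 20978376 for MEF replicate 1. Every MEF level and every call of iPSC against MEF rests on these 2 unlike MEF libraries. Of the 826 genes higher in Eff, 632 (76.5%) were higher in iPSC than in MEF and 33 (4.00%) lower, against 25.3% higher and 28.0% lower among all tested genes. Of the 1337 lower in Eff, 999 (74.7%) were lower in iPSC and 95 (7.11%) higher. Among genes called on each day, 74 of 94 higher ones were higher and 272 of 332 lower ones lower in iPSC. All 12 ranked lower genes and 9 of the 12 ranked higher genes followed iPSC, while 2 of the ranked higher genes were lower in iPSC than in MEF. Across the 14695 genes, the pooled log2 fold change correlated at 0.458 with that of iPSC over MEF (Pearson r, a description). The labels give MEF and iPSC no sort gate and a medium without dox and AA, so sorting and medium cannot be told apart from cell state in these levels.

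Some called genes lay outside the range of MEF and iPSC. Pax7 averaged 31.1 CPM in Eff and 7.47 CPM in Ineff on the 12-library scale, against 0.0329 CPM in iPSC and 0 in MEF. Cldn11 averaged 46.7 CPM in Eff and 11.0 CPM in Ineff, against 0.198 CPM in iPSC and 0 in MEF. Foxd1, at 108 CPM in Eff and 49.5 CPM in Ineff, had 1.06 CPM in iPSC and 10.2 CPM in MEF. These 3 were thus higher in Eff than in Ineff and lower in MEF and iPSC than in either population. Among the lower genes, Laptm5 averaged 229.7 CPM in Eff and 408 CPM in Ineff, against 33.2 CPM in iPSC and 0.695 CPM in MEF. Igfbp3, at 226 CPM in Eff and 780.0 CPM in Ineff, had 23.7 CPM in iPSC and 28.5 CPM in MEF. These 5 genes were picked for this after their values were seen.

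A pooled comparison can also hide genes that change sides. Genes called on both days in opposite directions numbered 37, of which 33 were higher in Eff on day 3 and lower on day 6, and 4 the other way round. Their smallest adjusted p in the pooled comparison was 0.506. Acsbg1, an acyl-CoA synthetase, had 268 and 267 CPM in d3_Eff and 68.8 and 57.2 CPM in d6_Eff, against 89.4 and 75.0 CPM in d3_Ineff and 221 and 254 CPM in d6_Ineff, with log2 fold changes of 1.70 on day 3 and -1.91 on day 6 (adjusted p = 2.57e-05 and 3.39e-07) and a pooled value of -0.10. Slc7a11, the cystine transporter, had 91.1 and 89.0 CPM in d3_Eff and 226 and 195 CPM in d6_Eff, against 41.0 and 38.5 CPM in d3_Ineff and 377 and 376 CPM in d6_Ineff (1.18 and -0.84). The simple keratin gene Krt8 went the other way, with 3.36 and 6.13 CPM in d3_Eff and 189.5 and 229 CPM in d6_Eff, against 12.4 and 12.2 CPM in d3_Ineff and 16.0 and 17.9 CPM in d6_Ineff (-1.39 and 3.62), and its partner Krt18 gave -1.43 and 2.34. These 4 were picked after their values were seen.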

How the data were processed

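Poly-A RNA from sorted cells was sequenced from strand-marking libraries, per the labels' protocols. The submitters' processing notes name STAR 2.3.0, Picard 1.100, HTSeq 0.6.0 and build mm9, with no order. The authors deposited unnormalized read counts per Ensembl gene ID, 1 file per library. Rows for reads outside genes were left out of totals and tests. The names of the deposited files say that counting was not stranded, so reads of genes that overlap on opposite strands cannot be told apart. Besides Sox21, Emx2 and Prss23, other named genes have such an overlap. Among them are Ccnd1, Ddr1, Igfbp7, Mest, Cbx7, Hk1, Egfl7, Bmp4, Bmpr1a, C1s1, Ccn2, Dusp1 and Olig1. Symbols came from GENCODE M21 (GRCm38), which named 32860 of 37583 IDs (87.4%). It is a later build than mm9, so no coordinates were drawn from the files.

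The 8 sorted libraries were filtered with edgeR's filterByExpr and scaled by TMM (R 4.3.3, edgeR 4.0.16, limma 3.58.1). The quasi-likelihood F-test was fitted with day and population as terms, over 14695 genes, with Benjamini-Hochberg adjustment and a threshold of 0.05. A fit of 4 group means gave the within-day differences and their interaction. SE is the absolute log2 fold change over the square root of F. The common biological coefficient of variation was 26.2% with day and population and 19.6% with group means. Alternatives were DESeq2 1.42.0, its size factors, no filter, a replicate block, no day covariate, averaged within-day contrasts and leaving out each library. The labels do not say that replicates are separate cultures, so p-values measure only the spread between these samples. In the fit with day and population, that spread includes any difference of the gap between the days. A gene with close replicates, such as Epcam, can thus miss the threshold there. A gene at 0 counts has a floor of 3 counts over 4 libraries, 0.0378 CPM in Eff and 0.0359 CPM in Ineff, which covers counting error only.

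The members and the 35 lists were chosen with earlier results of these data known. Of 848 list entries, 844 matched, 2 by synonym. Genes were named by rule: called, no overlap on either day, a mean of at least 5 CPM on each day in the higher population, not a predicted gene, pseudogene or ribosomal protein gene, ranked by the smaller within-day change, the first 12 per direction. To these were added Ly6a, Nt5e, Epcam, the 4 factors and up to 3 called members per list and direction. A gene that the rule names is not reported here. Same-numbered replicates did not deviate together (correlations of -0.084 to 0.091), so the numbers do not pair the samples.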

Additional observations from a re-analysis of the deposited data

Results flagged for a closer look

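The 4 libraries of each population were searched for a library far from the others, by the gap to its neighbour over the whole range. The 244 sets held the values of named genes and the share of reads outside genes. That ratio passed Dixon's critical value at the 95% level in 5 of them. Chance flags about 1 in 20 sets of like values, but these sets mix libraries of both days, so that rate does not carry over. Chaf1b, a chromatin assembly factor, had a ratio of 0.867 in Eff, with d6_Eff replicate 2 at 124 CPM. Foxd1 had 0.833 in Eff, with d3_Eff replicate 2 at 132 CPM. Gcat had 0.918 in Eff, with d3_Eff replicate 1 at 58.9 CPM. Pou5f1 had 0.957 in Ineff, with d3_Ineff replicate 2 at 35.8 CPM. Rab25 had 1 in Ineff, since d6_Ineff replicate 1 had 0.364 CPM and the other 3 had 0.

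The Eff minus Ineff gap differed between the days in 28 of the 121 named genes (edgeR interaction test, adjusted p under 0.05). Among all genes tested, 1.85% had a gap more positive on day 6 and 6.57% one more negative, and most of the 121 had been chosen for a call in the pooled comparison. As day 6 minus day 3 in log2 units, the gap was more positive on day 6 for Epcam (3.94), Cldn4 (1.66), Nr0b1 (1.45), Psph (1.04), Uhrf1 (0.99), Tgif1 (0.98), Ezh2 (0.85) and Mcm10 (0.75). Gpx2 gave 11.17, a fitted value that depends on the prior count, as its day 3 Eff libraries had 0 counts. The gap was more negative on day 6 for the marker genes Nt5e (-2.78) and Ly6a (-2.26). The same held for the matrix, secreted and contractile genes Tgfbi (-1.56), Adamts5 (-1.47), Loxl2 (-1.37), C1s1 (-1.32), Prss23 (-1.30), Igfbp3 (-1.02), Sparc (-1.01) and Cald1 (-0.94), and for Cemip (-1.69). Among regulators it held for Hoxa13 (-1.84), Cdkn1c (-1.69), Ddr1 (-1.21), Laptm5 (-0.92) and Stat3 (-0.88), and among metabolic genes for Aldoc (-1.66), Egln3 (-0.80) and Hk1 (-0.79).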

How the results depend on the processing

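The counts of called genes depended on the model more than the directions did. No named gene that was called in the main or in an alternative run changed sign between them. Genes called in neither, such as Myc, were not checked for this. Genes called higher and lower numbered 826 and 1337 with day as a covariate (61.8% lower). They numbered 1370 and 1905 with no filter on low counts, 1304 and 1828 with DESeq2, 902 and 1324 with DESeq2's size factors in edgeR, 1649 and 2419 as the average of the within-day contrasts of the 4-group fit, 663 and 1311 as that average over 12 libraries, and 87 and 242 without the day covariate (73.6% lower). All 87 and 242 were among those called with it. Genes called pooled and on each day numbered 166 higher without the filter and 148 with DESeq2, against 94. Leaving out 1 library gave 243 to 1003 higher and 601 to 1630 lower, 50 to 116 higher and 139 to 375 lower on each day, and 795 to 1197 genes whose gap differed between days. The lowest of these last, 795 and 801, came without d3_Ineff replicate 2 and d6_Ineff replicate 2. The median change of all genes stayed between -0.023 and 0.014 in every setting. The 121 named genes include Nt5e, Epcam and the 4 factors, which had no call in the main run to lose. Of the 121, 19 to 24 lost their call without a day 6 library and 1 to 9 without a day 3 library. Each day and population had 2 libraries.

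With the replicate block, 522 genes were higher and 993 lower, of which 518 and 987 were called without it, 80 higher and 280 lower passed on each day and 1073 differed between days. The numbers share only a number, as same-numbered samples did not deviate together.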
